A study of Mus musculus with 8 samples.

Results

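Expression of 30 genes of cholesterol synthesis, cholesterol uptake and the SREBP2 pathway was examined in the livers of db/db mice. They were taken by name, for what they encode, from a table of 21532 genes, and all 30 were present. The 30 genes comprised 8 genes of the mevalonate steps, 11 of the squalene and sterol steps, 3 that control SREBP2, 5 of sterol uptake and transfer, and 3 of cholesterol esterification. RNA-Seq was performed on livers of 8 male db/db mice, obese and diabetic animals whose leptin receptor does not work. The Control group (n = 4) received control peptide and the AF1 peptide group (n = 4) received AF1 peptide, a synthetic peptide derived from the N-terminal domain of estrogen receptor α (ERα) and joined to a TAT sequence for entry into cells. From the age of 8 weeks, peptide was injected retro-orbitally at 5 mg/kg, 2 times a week, over 5 weeks. Both groups were thus db/db mice injected with a peptide, and the comparison asks what AF1 peptide changed in the diabetic liver, with no lean or uninjected group in it. Values are normalized counts, that is, reads per gene after division by the library's size factor, with 1 library per mouse.

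Cholesterol is built from acetyl-CoA through mevalonate, isoprenoids, squalene and a chain of sterols, and the liver is a major site of this synthesis. When sterols in the endoplasmic reticulum are low, SCAP escorts SREBP2 to the Golgi, where it is cut, and its released part turns on genes of synthesis and uptake. When sterols are high, INSIG proteins hold SCAP back, LXR receptors turn on genes of sterol export, and surplus cholesterol is stored as esters or secreted.

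The letters that SREBP2 and its usual partners are known to bind were looked for in promoter windows of 300 bases, 250 before the start of the gene and the first bases of the transcript, from RefSeq (GRCm38.p6). Windows were matched for 23 of the 30 genes. The sterol regulatory element core TCACNCCAC, on either strand, was found in 1 of these 23 genes, Hmgcs1, and in 1.44% of 27025 genes with a window. The NF-Y box CCAAT was found in 21 of the 23 genes and in 41.1% of all genes, and the GC box GGGCGG in 20 of the 23 genes and in 38.2% of all genes. Some genes had more than 1 window, and of the 27 windows in all, 21 held the NF-Y box and 22 the GC box. The NF-Y box and the GC box were thus about equally frequent in this set. A match is a description of the window only. Shown here, from 5′ to 3′ on the strand of the gene, are the 250 bases before the start of the gene with the sterol element and of the 3 genes with lower expression described further on, a set chosen after values were seen. Capitals mark the sterol element core and the NF-Y box, which reads ATTGG on the opposite strand.
Hmgcs1 (GRCm38.p6, chr13:119690101-119690350, plus strand): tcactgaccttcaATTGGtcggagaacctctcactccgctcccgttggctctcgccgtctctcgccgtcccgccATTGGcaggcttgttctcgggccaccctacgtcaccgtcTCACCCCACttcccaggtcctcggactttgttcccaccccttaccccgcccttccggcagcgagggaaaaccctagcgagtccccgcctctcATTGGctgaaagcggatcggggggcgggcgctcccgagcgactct
Idi1 (GRCm38.p6, chr13:8885356-8885605, plus strand): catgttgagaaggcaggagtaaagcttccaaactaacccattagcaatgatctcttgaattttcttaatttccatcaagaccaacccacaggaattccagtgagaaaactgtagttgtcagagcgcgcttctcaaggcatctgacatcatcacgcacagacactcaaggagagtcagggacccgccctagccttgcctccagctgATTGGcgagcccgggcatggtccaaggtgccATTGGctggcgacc
Hsd17b7 (GRCm38.p6, chr1:169969206-169969455, minus strand): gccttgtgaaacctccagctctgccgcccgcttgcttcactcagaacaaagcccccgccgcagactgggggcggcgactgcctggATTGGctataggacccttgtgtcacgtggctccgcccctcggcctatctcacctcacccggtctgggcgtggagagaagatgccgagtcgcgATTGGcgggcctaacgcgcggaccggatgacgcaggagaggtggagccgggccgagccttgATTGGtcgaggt
Sc5d (GRCm38.p6, chr9:42264301-42264550, minus strand): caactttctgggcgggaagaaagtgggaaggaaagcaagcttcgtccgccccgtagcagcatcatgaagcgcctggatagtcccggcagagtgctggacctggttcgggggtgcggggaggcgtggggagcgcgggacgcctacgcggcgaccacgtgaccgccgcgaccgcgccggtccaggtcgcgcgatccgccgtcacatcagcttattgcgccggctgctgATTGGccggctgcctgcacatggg
The core of the sterol element in Hmgcs1 begins at base -137 from the start of the gene. The windows of Idi1, Hsd17b7 and Sc5d hold the NF-Y box and no match to these letters of the core.

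The libraries held 23031880 to 45117528 reads each, with no difference in depth that passed an exact permutation test (two-sided, p = 0.686). All 6 hepatocyte markers were present, as the tissue label calls for. AF1 peptide replicate 1 stood apart from the other 7 mice. It lay at -74.2 on the first principal component, which held 39.3% of the variance, where the others lay between -2.33 and 21.8. Its summed Kupffer cell and macrophage markers (6 of 6 in the table, none at 0) were 2340.4 normalized counts, against 5178 to 6541 in Control and 5809 to 6052 in the other 3 AF1 peptide mice. Its summed hepatocyte markers were 1.63e+06, against 2.18e+06 to 2.35e+06 in Control and 1.85e+06 to 2.35e+06 in the other AF1 peptide mice. Mitochondrial transcripts made up 20.8% of its reads, 34.3 to 37.8% in the other AF1 peptide mice and 22.4 to 34.3% in Control (exact permutation p = 0.4). Results that rest on this mouse are therefore also given without it.

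Of the 30 sterol genes, 3 passed the test as lower in AF1 peptide livers. Idi1, Hsd17b7 and Sc5d, all of them enzymes of cholesterol synthesis, changed by -21.7%, -19.6% and -21.2%, and no gene of the 30 passed as higher. Of the 30 genes, 24 had a lower mean on the log2 scale in AF1 peptide livers, with a median log2 fold change of -0.078, where the median of the 15989 tested genes was -0.0083 and 51.8% of them were lower. All 30 genes were among those tested, which had a mean normalized count of at least 10. The test was limma on log2(normalized count + 1), a scale that understates the change of genes with low counts, with a two-sided unadjusted p value under 0.05 as the threshold. By this rule 3.03% of all tested genes were lower and 3.16% were higher with AF1 peptide, against 3 of 30 (10%) and 0 of 30 for the sterol genes. After Benjamini-Hochberg adjustment over all tested genes (limma), 0% of them and 0 of the 30 stayed under 0.05. On the recovered reads, edgeR and DESeq2 also left 0 of the 30 after adjustment, and both called Idi1, Hsd17b7 and Sc5d at an unadjusted p value under 0.05. An exact permutation test over the 8 mice, whose smallest p value is 0.0286, called Sc5d alone. In bulk liver RNA, fewer hepatocytes and less RNA per hepatocyte cannot be told apart.

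The small shift of the 30 genes moved with single treated mice, and in opposite directions. Without AF1 peptide replicate 1, 17 of the 30 genes were lower, the median log2 fold change was -0.015 against -0.0036 for all tested genes, and 3 genes passed the test as lower, namely Hsd17b7, Sc5d and Npc2. In that comparison 5.48% of all tested genes were lower and 4.58% higher at p under 0.05, and 0 of the 30 were higher. Leaving out AF1 peptide replicate 3 moved the median further, to -0.16, against -0.0025 for all tested genes, and the other 6 mice left out in turn gave medians between the values for these 2 mice. The count of lower genes was 1 without Control replicate 1 (Hsd17b7), 1 without Control replicate 4 (Sc5d) and 7 without AF1 peptide replicate 3 (Pmvk, Idi1, Sqle, Cyp51, Hsd17b7, Sc5d and Soat2). Of the 15989 tested genes, 344, 346 and 517 were lower at p under 0.05 in these fits, in the same order.

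**Figure D1:**
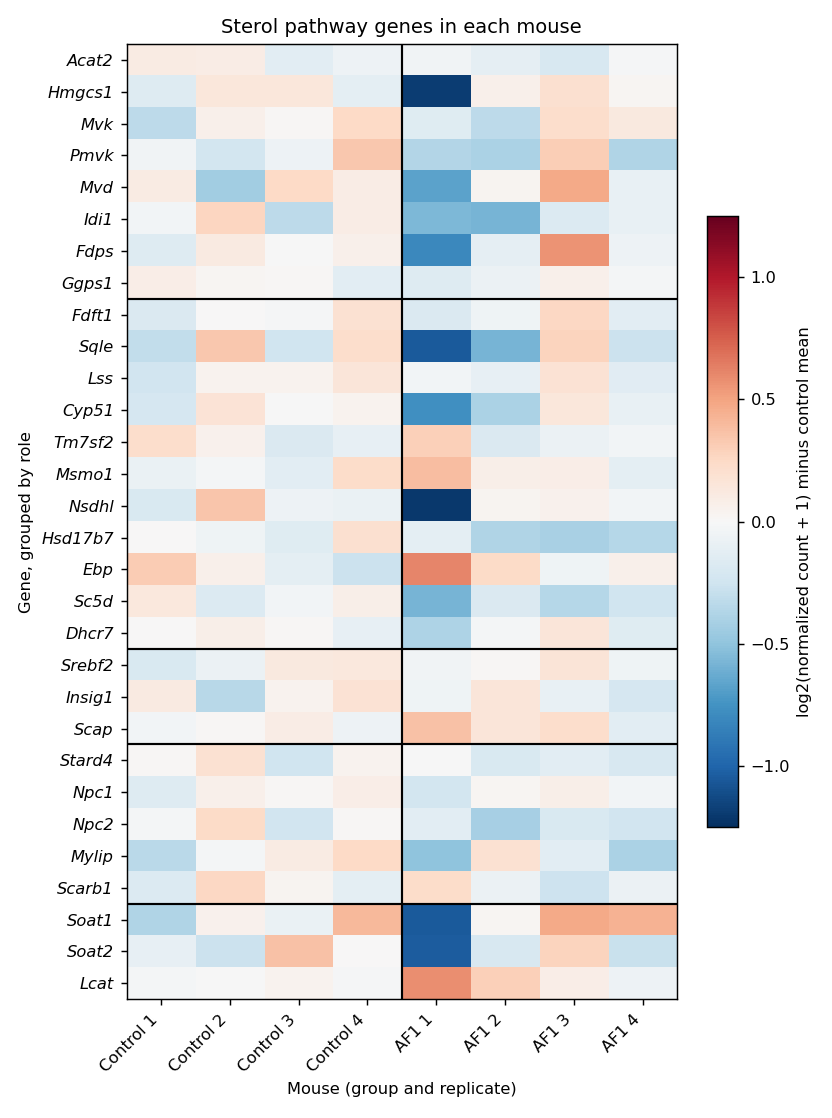
Each row is 1 of the 30 genes, in the order of the pathway, each column is 1 mouse, and the colour is log2(normalized count + 1) minus the mean of the 4 Control mice. Black lines separate the role groups and the treatments. AF1 peptide replicate 1 holds the deepest blue cells (Hmgcs1, Sqle, Nsdhl, Soat1 and Soat2) and red cells in Ebp and Lcat. Sc5d, Hsd17b7, Idi1, Npc2, Stard4 and Acat2 lie below the Control mean in all 4 AF1 peptide mice, Stard4 and Acat2 by little in some of them.

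The mevalonate steps turn acetyl-CoA into farnesyl diphosphate. All 8 genes had a negative log2 fold change (median -0.098), and 1 of them, Idi1, passed the test. When AF1 peptide replicate 1 was left out, 4 of the 8 were negative and the median was -0.0017.

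Idi1, which encodes the isomerase that balances the isoprenoid building blocks, had normalized counts of 1143, 1410.2, 933 and 1247 in Control replicates 1 to 4. In AF1 peptide replicates 1 to 4 they were 792, 779.9, 1038 and 1100.2. AF1 peptide replicates 1 and 2 lay below all Control mice, and the other two lay within the Control range. The means were 1183 ± 199.9 (SD, n = 4) in Control and 928 ± 165 (SD, n = 4) with AF1 peptide, a log2 fold change of -0.35 (SE 0.16, limma p = 0.0475, adjusted p = 0.763, exact permutation p = 0.114). The 95% confidence interval was -0.70 to -0.0046. Leaving out AF1 peptide replicate 1 gave -0.28 (SE 0.15), which did not pass. With each mouse left out in turn, Idi1 passed in 3 of 8 fits. Of its 50-base transcript words, 25.3% also occur in other genes, most in the predicted gene Gm13502, so part of its reads could have been assigned elsewhere.

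Pmvk, the phosphomevalonate kinase, was 630.4, 552, 620.5 and 817 in Control and 504, 493, 802 and 500.5 with AF1 peptide. In 3 of the 4 AF1 peptide mice it lay below every Control mouse, while AF1 peptide replicate 3 was near the highest Control value. Pmvk had a log2 fold change of -0.21 (SE 0.18, adjusted p = 0.825) and did not pass. Acat2, the cytosolic thiolase that makes acetoacetyl-CoA, was 4301, 4265, 3661 and 3836 in Control and 3886, 3715, 3492 and 3964 with AF1 peptide. Its groups overlapped, with a log2 fold change of -0.092 (SE 0.10, adjusted p = 0.851). It shares 39.1% of its 50-base words with other genes, chiefly its near copy Acat3, which had a log2 fold change of 0.023 (adjusted p = 0.983).

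Hmgcs1, the cytosolic HMG-CoA synthase and the gene with the sterol element core in its window, was 4673, 5758, 5744 and 4784 in Control and 2287, 5463, 5975 and 5316 with AF1 peptide. AF1 peptide replicate 1 had less than every other mouse, and AF1 peptide replicates 2 to 4 lay in or above the Control range. Its log2 fold change was -0.22 (SE 0.27) with this mouse and 0.10 (SE 0.11) without it, and neither passed.

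Fdps, which makes farnesyl diphosphate, ranged from 5082 to 6142 in Control and from 3249 to 8422 with AF1 peptide, with both the lowest and the highest of the 8 mice in the treated group. Its log2 fold change was -0.10 (adjusted p = 0.936), and 26.2% of its 50-base words occur in other genes, chiefly Gm43738. Mvd, the decarboxylase, had the same pattern, with 432 to 696 in Control, 368 to 813 with AF1 peptide and a log2 fold change of -0.064 (adjusted p = 0.967). Mevalonate kinase (Mvk) ranged from 193 to 288 and from 194 to 282 (log2 fold change -0.034, adjusted p = 0.976). Ggps1, which leads isoprenoids away from sterols towards protein prenylation, ranged from 261 to 302 and from 256 to 299 (log2 fold change -0.047, adjusted p = 0.935). In these 4 genes the treated mice overlapped with Control.

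The squalene and sterol steps join farnesyl units into squalene, close the rings and trim the sterol. Of these 11 genes, 8 had a negative log2 fold change (median -0.10), Hsd17b7 and Sc5d passed the test as lower and 0 passed as higher. In the 7 mice without AF1 peptide replicate 1, 7 of the 11 were negative (median -0.020), and Hsd17b7 and Sc5d again passed.

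Sc5d, the desaturase that makes 7-dehydrocholesterol, had normalized counts of 10968, 8893, 9748 and 10533 in Control and 6677, 8819.97, 7804 and 8398 with AF1 peptide. Every AF1 peptide mouse lay below every Control mouse, although AF1 peptide replicate 2 and Control replicate 2 were close. Sc5d was the only gene of the 30 whose groups did not overlap (1 lower, 0 higher), where 1.85% of all tested genes did not overlap and were lower and 2.05% did not overlap and were higher. The means were 10035 ± 913 in Control and 7925 ± 930.5 with AF1 peptide (SD, n = 4 each), a log2 fold change of -0.34 (SE 0.12, limma p = 0.0176, adjusted p = 0.763, exact permutation p = 0.0286) and a 95% confidence interval of -0.61 to -0.073. Leaving out AF1 peptide replicate 1 gave -0.26 (SE 0.11), which passed. Sc5d passed in 7 of the 8 fits with a mouse left out, and failed without Control replicate 1.

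Hsd17b7, a ketosterol reductase that acts in the removal of methyl groups from the sterol ring, was 494, 476, 445 and 565 in Control and 454, 379.9, 372 and 385 with AF1 peptide. AF1 peptide replicates 2 to 4 lay below all Control mice, and replicate 1 lay within their range. The means were 495 ± 50.9 and 398 ± 38.3 (SD, n = 4 each), a log2 fold change of -0.31 (SE 0.11, limma p = 0.0184, adjusted p = 0.763, exact permutation p = 0.0571) and a 95% confidence interval of -0.56 to -0.065. The least changed of the treated mice was thus AF1 peptide replicate 1, and without it the log2 fold change was -0.38 (SE 0.11). Hsd17b7 likewise passed in 7 of the 8 fits, and failed without Control replicate 4. No 50-base word of Hsd17b7 occurs in another gene (0%), and 0.41% of those of Sc5d do.

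Sqle, the squalene epoxidase and a control point of the pathway, had the largest log2 fold change of the 30 genes in size, and it did not pass the test. Its values were 451, 702, 469 and 649 in Control and 269, 373, 676 and 463 with AF1 peptide. Replicates 1 and 2 of the treated group lay below Control, replicate 4 was within the Control range and replicate 3 was near its top, and the log2 fold change of -0.40 (SE 0.26, adjusted p = 0.779) carried a wide 95% confidence interval of -0.98 to 0.17. Its place rested on AF1 peptide replicate 1, without which the log2 fold change was -0.19 (SE 0.21). In the same 7 mice those of Hsd17b7, Idi1, Npc2 and Sc5d, all negative, and that of Soat1, which was positive (0.31), were larger in size.

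Nsdhl, a sterol dehydrogenase that works in the same demethylation steps as Hsd17b7, was 1893, 2754, 2069 and 2044 in Control and 939, 2225, 2249 and 2117 with AF1 peptide. Only AF1 peptide replicate 1 was low, and the log2 fold change went from -0.29 (SE 0.26) to 0.019 (SE 0.12) without it, and neither passed. Cyp51, the lanosterol demethylase, ranged from 1513 to 1968 in Control and from 1025 to 1930.1 with AF1 peptide (log2 fold change -0.28, adjusted p = 0.779). The same mouse was its lowest, and leaving it out gave -0.11.

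The other genes of these steps overlapped between the groups. Squalene synthase (Fdft1) ranged from 2560.4 to 3305 in Control and from 2561 to 3475 with AF1 peptide, with a log2 fold change of -0.026 (adjusted p = 0.976). It overlaps Ctsb on the opposite strand over 18.3% of its exon bases, and Ctsb itself had a log2 fold change of -0.038. Lanosterol synthase (Lss) ranged from 1122 to 1479 and from 1205 to 1509 (log2 fold change -0.024, adjusted p = 0.976). The reductase Dhcr7, which makes cholesterol from 7-dehydrocholesterol, ranged from 2292 to 2589.9 and from 1883 to 2724 (log2 fold change -0.10, adjusted p = 0.862).

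The 3 genes of these steps with a positive log2 fold change were Ebp, Msmo1 and Tm7sf2, and none passed the test. Ebp, the sterol isomerase that acts just before Sc5d, ranged from 3781 to 5662 in Control and from 4368 to 6925 with AF1 peptide (log2 fold change 0.21, adjusted p = 0.811). Msmo1, the methylsterol oxidase, ranged from 1696 to 2176 and from 1709.9 to 2423 (log2 fold change 0.10, adjusted p = 0.866). The sterol reductase Tm7sf2 ranged from 1814 to 2389.8 and from 1806 to 2518 (log2 fold change 0.002, adjusted p = 0.998), and its sign depended on the scaling of the libraries, since it was -0.089 with equal totals. In all 3 genes the highest of the 8 mice was AF1 peptide replicate 1, the mouse in which Hmgcs1, Sqle, Cyp51 and Nsdhl were lowest. Without it the log2 fold changes were 0.079 for Ebp, 0.011 for Msmo1 and -0.10 for Tm7sf2.

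**Figure D2:**
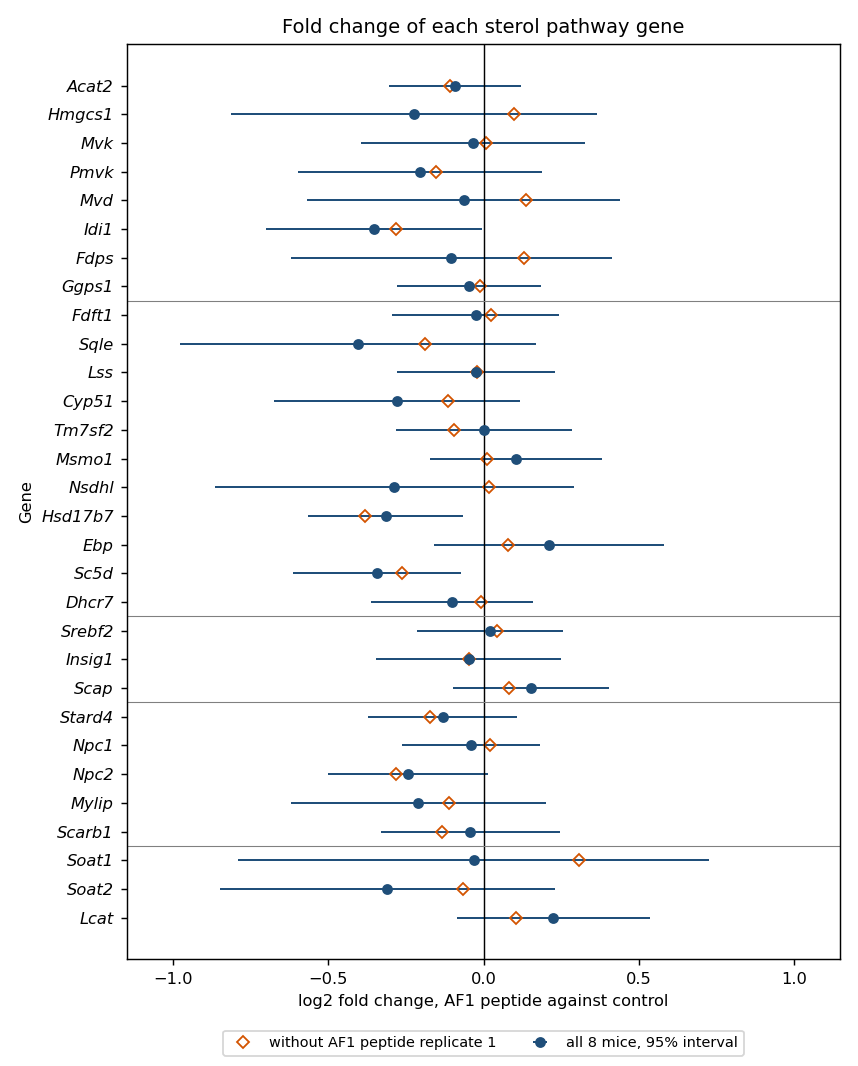
Filled circles give the log2 fold change of each gene, AF1 peptide against Control, over all 8 mice with its 95% confidence interval (limma), and open diamonds the same without AF1 peptide replicate 1. Grey lines separate the role groups. The intervals of Idi1, Hsd17b7 and Sc5d lie below 0, and the diamonds of Hmgcs1, Mvd, Fdps and Nsdhl, among others, lie on the other side of 0 from their circles.

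None of the 3 genes that control SREBP2 passed the test, and 1 of them had a negative log2 fold change (median of the 3, 0.021). Srebf2, which encodes SREBP2 itself, was 716, 779, 891 and 899 in Control and 791, 826, 917 and 789.8 with AF1 peptide. The treated mice lay within the Control range or just above it, with a log2 fold change of 0.021 (SE 0.11, adjusted p = 0.977) and a 95% confidence interval of -0.21 to 0.26. Because SREBP2 is released by cleavage, its mRNA level does not report its activity.

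Insig1, which holds back the SCAP and SREBP complex and is itself a known SREBP target, was 6265, 4560.4, 5994 and 6584 in Control and 5601, 6447, 5446 and 5015 with AF1 peptide. The lowest and the highest of the 8 mice were both in Control, and the log2 fold change of -0.048 (SE 0.14, adjusted p = 0.953) had an interval of -0.35 to 0.25. Scap, the escort of SREBP2, was 1871, 1936, 2049 and 1833 in Control and 2476, 2135, 2244 and 1753 with AF1 peptide. In 3 treated mice it lay above every Control mouse and in replicate 4 below them, with a log2 fold change of 0.15 (SE 0.11, adjusted p = 0.799). Of the 8 fits with a mouse left out, Scap passed only in the one without AF1 peptide replicate 4, and without AF1 peptide replicate 1 its log2 fold change was 0.082 (SE 0.11). A gene on the opposite strand covers 13.2% of the exon bases of Scap.

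All 5 genes of sterol uptake and transfer had a negative log2 fold change (median -0.13), and 0 passed the test in all 8 mice. With AF1 peptide replicate 1 left out, 4 of 5 were negative (median -0.13) and 1 passed as lower, Npc2.

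Npc2, which hands cholesterol to NPC1 for its exit from lysosomes, was 1107, 1332, 953 and 1139.8 in Control and 1027, 846, 985 and 951 with AF1 peptide. AF1 peptide replicates 2 and 4 lay below Control, and the highest 3 mice were all in Control. Its log2 fold change of -0.24 (SE 0.12, adjusted p = 0.763) did not pass with all 8 mice, and without AF1 peptide replicate 1 it was -0.28 (SE 0.12) and passed. Its partner Npc1 ranged from 2073 to 2440.3 in Control and from 1977 to 2427 with AF1 peptide (log2 fold change -0.041, adjusted p = 0.942).

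Stard4, a cytosolic sterol carrier and known SREBP2 target, was 1047, 1179.8, 873 and 1072 in Control and 1031, 911, 945 and 904 with AF1 peptide. All 4 treated mice lay within the Control range, with a log2 fold change of -0.13 (SE 0.11, adjusted p = 0.819). Mylip, the ubiquitin ligase that sends lipoprotein receptors to degradation and is a known LXR target, was 137, 169, 186 and 206 in Control and 121, 197, 157 and 131 with AF1 peptide. The groups overlapped, with a log2 fold change of -0.21 (SE 0.19, adjusted p = 0.826) and a value of -0.11 without AF1 peptide replicate 1. Scarb1, the receptor that takes up cholesteryl ester from HDL, ranged from 1653 to 2223 and from 1557 to 2182 (log2 fold change -0.042, adjusted p = 0.96).

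None of the 3 genes of cholesterol esterification passed the test, and AF1 peptide replicate 1 was extreme in each. Soat2, the esterifying enzyme of hepatocytes, was 2594, 2319, 3597 and 2795 in Control and 1356, 2426, 3382 and 2298 with AF1 peptide. Its log2 fold change of -0.31 (SE 0.24, adjusted p = 0.81) became -0.068 without the first treated mouse, which was the lowest of all 8. Soat1, the form known from macrophages, was low in this tissue at 28.8, 39.4, 35.7 and 50.2 in Control and 17.7, 38.4, 52.7 and 51.4 with AF1 peptide. Again the lowest was AF1 peptide replicate 1. Its macrophage markers were low as well, and their part in the result was not tested. Soat1 had a log2 fold change of -0.031 (SE 0.34, adjusted p = 0.989) in limma and a value of 0.060 in edgeR, so that its sign depended on the method.

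Lcat, which the liver secretes to esterify cholesterol on HDL in plasma, was 8224, 8334, 8645 and 8294 in Control and 12552, 10299, 8873 and 7998 with AF1 peptide. The 4 Control mice lay close together, 3 treated mice lay above all of them and AF1 peptide replicate 4 lay below. Lcat had a log2 fold change of 0.23 (SE 0.14, adjusted p = 0.775) and did not pass. Of the 8 fits with a mouse left out, it passed only in the one without AF1 peptide replicate 4, and without AF1 peptide replicate 1 its log2 fold change was 0.11 (SE 0.11).

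The treated mice lay on both sides of the Control mean. The median over the 30 genes of the log2 value minus the Control mean was -0.060, 0.058, -0.0060 and 0.067 in Control replicates 1 to 4 and -0.17, -0.072, 0.082 and -0.090 in AF1 peptide replicates 1 to 4. For the 19 enzymes of synthesis it was -0.36 in AF1 peptide replicate 1 and 0.14 in AF1 peptide replicate 3. For the mevalonate steps alone the same mice lay at -0.46 and 0.21. These 2 treated mice thus held the lowest and the highest median of the 8 mice in each of the 3 sets. AF1 peptide replicate 1 had the lowest value of the 8 mice in 13 of the 30 genes and the highest in 5, where it was lowest in 23.4% and highest in 25.9% of all tested genes. AF1 peptide replicate 3 was highest in 8 of the 30 genes, and its share over all tested genes was not counted.

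**Figure D3:**
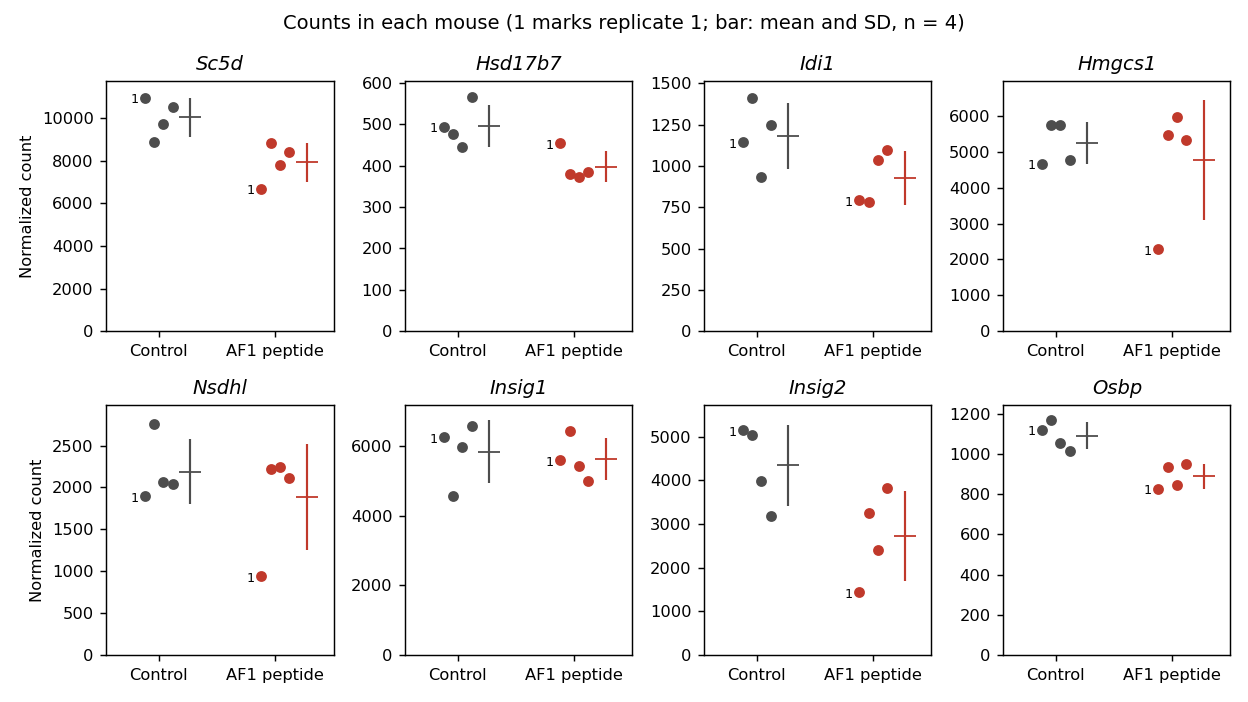
Each point is the normalized count of 1 mouse, with replicate 1 of each group marked by the digit, and the bars give the mean and SD of each group (n = 4). All vertical axes begin at 0. Sc5d and Osbp do not overlap between the groups, whereas Hmgcs1 and Nsdhl differ through AF1 peptide replicate 1 and Insig1 overlaps throughout.

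Some genes of the pathway varied together from mouse to mouse, and others varied in opposite directions. Over the 8 mice, after removal of the group means, the median Pearson correlation was 0.13 among the 435 pairs of the 30 genes, 0.23 among the 171 pairs of the 19 enzymes and 0.33 among the 28 pairs of the mevalonate genes, against 0 among the pairs of all tested genes. Among the 7 mice without AF1 peptide replicate 1 these medians were 0.15, 0.15 and 0.18. Of the 435 pairs, 56.1% were positive over the 8 mice and 61.6% over the 7. The other role groups had 8-mouse medians of 0.065 (squalene and sterol steps), 0.20 (SREBP2 control), -0.13 (uptake and transfer) and -0.63 (esterification). In the same order these were 0.12, 0.25, 0.22 and 0.15 over the 7 mice. SREBP2 control and esterification hold only 3 pairs each. The closest pairs over 8 mice were Hmgcs1 with Nsdhl (0.96) and Sqle with Cyp51 (0.95). Without AF1 peptide replicate 1, the first fell to 0.68 and the second was 0.92. The most negative pair was Acat2 with Srebf2, at -0.94 over 8 mice and -0.94 over 7. Over the 7 mice the highest value was that of Fdft1 with Lss (0.96). These points share libraries and their scaling, and the values are a description.

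Other genes of sterol control and handling were measured for context. Of 28 such genes, 27 were tested, 2 passed as lower and 1 as higher, where 3.03% and 3.16% of all tested genes did, and their median log2 fold change was -0.10. Insig2, the second of the proteins that retain SCAP, was 5141, 5034, 3991 and 3189 in Control and 1435, 3242, 2401 and 3823 with AF1 peptide. Its groups overlapped, with AF1 peptide replicates 1 and 3 below all Control mice, and it had the largest fall among the pathway genes that passed, a log2 fold change of -0.74 (SE 0.28, limma p = 0.0233, adjusted p = 0.763, exact permutation p = 0.0857). In the 7 mice without AF1 peptide replicate 1 it was -0.46 (SE 0.19) and passed, and it passed in 6 of the 8 fits with a mouse left out. Insig2 fell and Insig1 did not pass, and the difference between these paralogs was not tested.

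Osbp, the oxysterol-binding protein that moves cholesterol from the endoplasmic reticulum to the Golgi, was 1121, 1169.9, 1056 and 1018 in Control and 827, 935, 845 and 949.6 with AF1 peptide. The groups did not overlap, as in 1.85% of all tested genes in this direction. Osbp had a log2 fold change of -0.30 (SE 0.092, limma p = 0.00903, adjusted p = 0.763, exact permutation p = 0.0286), and it passed in 8 of the 8 fits with a mouse left out. Gramd1c, a sterol transfer protein of the endoplasmic reticulum, was 1226, 995, 1163 and 1113 in Control and 1699, 1386, 1372 and 1189 with AF1 peptide. All but AF1 peptide replicate 4 lay above the Control range, and the log2 fold change of 0.32 (SE 0.12, limma p = 0.0236, adjusted p = 0.763, exact permutation p = 0.0571) became 0.23 (SE 0.10) without AF1 peptide replicate 1 and no longer passed.

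Among the 6 genes of SREBP control and enzyme turnover, all had a negative log2 fold change (median -0.18). Of the 8 listed genes of LXR and its targets, 3 were negative, with a median of 0.059, and 0 passed at an unadjusted p value under 0.05. Nr1h3, which encodes LXRα and is named for its values, did not overlap between the groups, at 2298 to 2474 in Control and 2485 to 3316 with AF1 peptide, with a log2 fold change of 0.17 (adjusted p = 0.777). Of all tested genes, 2.05% did not overlap and were higher. Without AF1 peptide replicate 1, the highest of the 8 mice, the log2 fold change of Nr1h3 was 0.075 (SE 0.084). In these 7 mice 4 of the 27 genes passed as lower and 0 as higher, where 5.48% and 4.58% of all tested genes did. Besides Insig2 and Osbp, these were Rnf139 and Lbr, both named after values were seen. Rnf139, an ubiquitin ligase of the endoplasmic reticulum, had a log2 fold change of -0.46 (SE 0.17) in these 7 mice. Lbr, a sterol reductase of the nuclear envelope, had -0.41 (SE 0.18). With all 8 mice the values were -0.28 (SE 0.21) for Rnf139 and -0.32 (SE 0.18) for Lbr, and neither passed. Rnf139 passed in 1 and Lbr in 2 of the 8 fits with a mouse left out. The mouse left out here, AF1 peptide replicate 1, had the highest Rnf139 of the 8, at 191, against 139 to 167 in Control.

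The level of each gene was compared per length, as the mean normalized count of the 8 mice per kb of exon. Lcat was the most abundant of the 30, at 6820.0 per kb, followed by Ebp at 2153 and by Insig1 and Sc5d at 1855 and 1845. The level of Lcat was above that of 98.6% of the tested genes with a length. Acat2, Fdps, Soat2 and Hmgcs1 lay between 1529 and 1088 per kb. The lowest were Hsd17b7 at 87.5, Ggps1 at 59.6, Mylip at 50.5 and Soat1 at 4.01 per kb. Of the 3 lower genes, Sc5d thus lay near the top of the set, Idi1 in the middle at 301 and Hsd17b7 near the bottom.

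**Figure D4:**
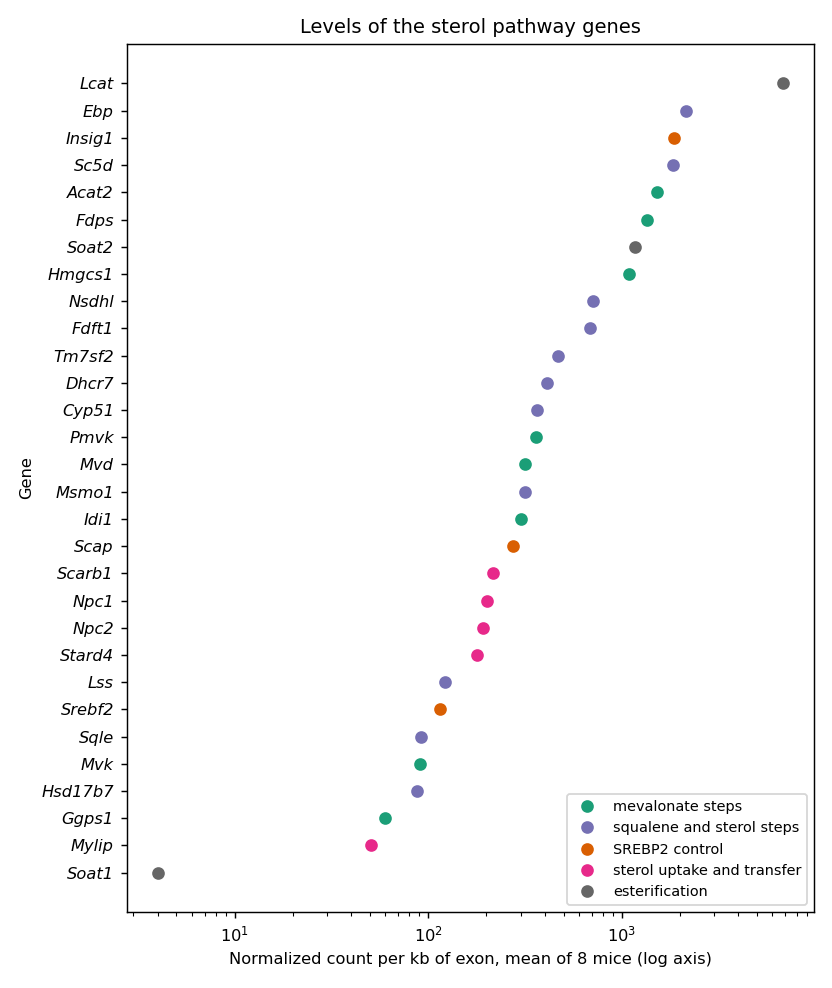
The mean normalized count of 8 mice per kb of exon (GENCODE M21 lengths) is shown on a log axis for each of the 30 genes, coloured by role. Lcat is the highest at 6820.0, Soat1 the lowest at 4.01, and the enzymes of synthesis are spread from 59.6 (Ggps1) to 2153 (Ebp).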

How the data were processed

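Liver RNA of 8 male db/db mice, 4 per group, was isolated in TRIzol, and stranded mRNA libraries were prepared from each mouse. The authors trimmed reads with Trim Galore 0.6.7, aligned them with HISAT2 to mm39 and sorted them with SAMtools 1.17, per the labels, and counted them with GenomicAlignments. The annotation, the use of strand and the normalization tool are not given in the sources used here. The deposited signal per gene and mouse was a normalized count, that is, whole reads over the size factor of each library, which equalled the one of the median-of-ratios method. Whole reads were recovered for 100% of 172256 values (within 0.01 reads), and totals were 23031880 to 45117528 reads per mouse. On these reads, edgeR 4.0.16 gave 479 lower and 557 higher genes at an unadjusted p value under 0.05.

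Groups were compared on log2(normalized count + 1) by limma 3.58.1 (R 4.3.3, two-sided, moderated variances with an intensity trend) for the 15989 genes whose mean normalized count was 10 or more. The threshold was the study's p value under 0.05, and p values were also Benjamini-Hochberg adjusted over all 15989 genes. Exact permutation tests over mice used scipy 1.17.1, and those of single genes were added after seeing the data.

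Groups and replicate numbers came from the labels. The 30 genes, the other lists and the tests were chosen with earlier results of these data known. All 30 genes are named. Values of all mice are given for genes with a p value under 0.05 or groups that do not overlap and for the 3 smallest p values in each role group, and genes of the other list are named at a p value under 0.05. Hmgcs1 and Nsdhl, for which all values are also given, and genes said to be named for their values fall outside this rule. A rule that promoters be shown for genes at a p value under 0.05 with the sterol element core selected 0 genes.

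Exon lengths, overlaps and shared 50-base words came from GENCODE M21 (GRCm38), which is not the build of the reads, so no gene coordinates are given beside those of the RefSeq promoters. No promoter entry was matched for Fdps, Fdft1, Sqle, Stard4, Npc1, Scarb1 or Soat2. Each mouse was treated as a replicate. Other settings were pseudocounts of 0.5 and 5, no filter on low values, at least 10 counts in every mouse, TMM factors, equal totals with and without mitochondrial genes, no intensity trend, variances of single genes, the replicate number as a block, edgeR, DESeq2 1.42.0, a change of more than 1.3-fold and each mouse left out in turn. edgeR without AF1 peptide replicate 1 was chosen after seeing the data.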

Additional observations from a re-analysis of the deposited data

Results flagged for a closer look

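In 66 groups of 4 mice (the 30 sterol genes and the 3 other pathway genes at a p value under 0.05, each in both treatments), the gap on the log2 scale between the most extreme mouse and its nearest neighbour was divided by the range of the group and compared with Dixon's 95% critical value for 4 samples. It exceeded this value in 3 groups, where chance gives about 1 in 20, or 3.3. Hmgcs1, the cytosolic HMG-CoA synthase, was low in AF1 peptide replicate 1, at 2287 normalized counts against 5316 to 5975 in the other 3 treated mice (0.8784). Nsdhl, a sterol dehydrogenase, was low in the same mouse, at 939 against 2117 to 2249 (0.9307). Pmvk, the phosphomevalonate kinase, was high in AF1 peptide replicate 3, at 802 against 493 to 504 (0.9556).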

How the results depend on the processing

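The count of 3 lower sterol genes was 2 or 3, and that of higher genes 0, under other pseudocounts, filters, scalings and tests. It was 0 when more than 1.3-fold change was also required, 1 (Sc5d) by an exact permutation test over mice, and 1 to 7 with 1 mouse left out, where the count of higher genes was 0 to 2 (Scap and Lcat without AF1 peptide replicate 4). With 1 mouse left out, 255 to 876 of the 15989 tested genes were lower at an unadjusted p value under 0.05. Those that were higher numbered 285 to 732, with 620 in the fit without AF1 peptide replicate 4. The median log2 fold change of -0.0778 was -0.158 to -0.0151 with 1 mouse left out and -0.169 with equal totals. Equal totals also moved the median of all genes from -0.0083 to -0.099, and their calls from 484 lower and 506 higher to 769 and 129, so that the sterol median minus that of all genes was -0.0703, against -0.0695 with TMM factors. The cause of these shifts was not tested. Idi1 no longer passed with equal totals without mitochondrial genes, without the trend, with its own variance or with the replicate block. The block left 2 lower genes (Hsd17b7 and Sc5d) and gave 647 lower and 597 higher genes in all. Mice with the same number correlated at 0.24, 0.024, 0.22 and -0.064 in their deviations, and mice with different numbers at -0.27 to 0.14. Whether the numbers pair the mice was not tested.

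The sign turned in genes far from the threshold. Tm7sf2 was -0.0892 with equal totals and -0.00082 with equal totals without mitochondrial genes, Srebf2 was -0.0703 with equal totals, and Soat1 was 0.0603 in edgeR and 0.0632 in DESeq2. With 1 mouse left out, log2 fold changes of the genes that turned ranged as Hmgcs1 -0.36 to 0.10, Mvk -0.14 to 0.062, Mvd -0.24 to 0.14, Fdps -0.33 to 0.13, Fdft1 -0.12 to 0.037, Lss -0.11 to 0.027, Tm7sf2 -0.10 to 0.075, Nsdhl -0.40 to 0.019, Srebf2 -0.043 to 0.066, Insig1 -0.16 to 0.013, Npc1 -0.093 to 0.021, Scarb1 -0.13 to 0.043 and Soat1 -0.20 to 0.31. edgeR without AF1 peptide replicate 1 gave 3 lower and 0 higher genes and a median of -0.0106, with values of 0.0949 for Hmgcs1, 0.0278 for Mvk, 0.144 for Mvd, 0.165 for Fdps, 0.0323 for Fdft1, -0.0991 for Tm7sf2, 0.0071 for Nsdhl, 0.00018 for Dhcr7, 0.0206 for Npc1 and 0.324 for Soat1. Depth limits Soat1 most, which had 19 to 64 reads per mouse.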

Other observations

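AF1 peptide replicate 1, in which Hmgcs1, Sqle, Cyp51, Nsdhl and Soat2 were the lowest of the 8 mice, also held the highest values of other genes of sterol handling, which are named here after their values were seen. Por, the reductase that supplies electrons to Cyp51 and other microsomal P450 enzymes, was 24662 normalized counts in this mouse, against 8616 to 10755 in Control and 8669 to 11887 in the other 3 AF1 peptide mice. Abcg5 and Abcg8 together encode the transporter that secretes sterols into bile. Abcg5 was 12327 in this mouse, 3312 to 4921 in Control and 3854 to 4435 in the other AF1 peptide mice. Abcg8 was 5177, 1619 to 2313 and 1634 to 1932 in the same order. With all 8 mice none of these 3 genes passed the limma test at an unadjusted p value under 0.05.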
